A study of Arabidopsis thaliana with 24 samples.

Results

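Cysteine-rich receptor-like kinases (CRKs) are a large plant family of membrane proteins, each with an extracellular region of conserved cysteine motifs, 1 membrane-spanning segment and a cytoplasmic serine/threonine kinase. Here 9 of them were followed through roots and shoots of Arabidopsis thaliana seedlings: CRK5 (AT4G23130), CRK6 (AT4G23140), CRK7 (AT4G23150), CRK8 (AT4G23160), CRK10 (AT4G23180), CRK11 (AT4G23190), CRK13 (AT4G23210), CRK36 (AT4G04490) and CRK41 (AT4G00970). They were taken by locus code, as 9 of the 33602 loci counted and 9 of the 46 loci that carry the names CRK1 to CRK46. The list was drawn up with results of these libraries in view, and CRK41 at least was known beforehand to be low in 41-OX shoots. The record does not name the values, so the genes are treated as selected on their genotype differences in shoots, and these are given as a description, with no test.

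The study, titled as a search for regulators of vascular proliferation, counted RNA in roots and in shoots of 7-day-old seedlings of 3 genotypes. The line 41-OX carries constitutive CLE41, pxy is the pxy-5 mutant, and WT is Col-0 wild type. CLE41 encodes a peptide that binds PXY, a receptor kinase of the dividing vascular tissue. The promoter that drives CLE41 and the number of independent 41-OX lines are not given in the sources used here, and no other allele or agent is named for any group. Per the design text, the 6 groups had 4 biological replicates each. Replicate 2 of pxy roots and replicate 2 of WT shoots were left out, so 22 of the 24 libraries entered: 4 of 41-OX roots, 3 of pxy roots, 4 of WT roots, 4 of 41-OX shoots, 4 of pxy shoots and 3 of WT shoots. The left-out WT shoot library held 167131 counts. The left-out library labelled pxy root had summed photosynthetic markers of 23000 CPM (the count of a gene relative to all counts of its library), where the other pxy roots had 283 to 448 CPM and the pxy shoots 20700 to 26100 CPM.

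Total counts of the libraries used lay between 7033091 and 12226066. CLE41 averaged 30.8 ± 3.12 CPM in 41-OX roots and 9.46 ± 0.922 CPM in WT roots (SD, n = 4 each). In shoots it averaged 28.6 ± 0.985 CPM in 41-OX (SD, n = 4) and 18.9 ± 3.22 CPM in WT (SD, n = 3). PXY transcript averaged 40.1 ± 3.11 CPM in pxy shoots (SD, n = 4) and 10.2 ± 1.22 CPM in WT shoots (SD, n = 3). In roots it averaged 16.1 ± 3.1 CPM in pxy (SD, n = 3) and 19.5 ± 3.98 CPM in WT (SD, n = 4). Counts per locus do not show which part of PXY the pxy-5 allele alters, so the transcript level is no check of the pxy label. Of 11 genes that mark root hairs, endodermis and nutrient uptake, the summed level was 170 to 237 CPM in 41-OX shoots, 29.3 to 54.8 CPM in pxy shoots and 29 to 45.2 CPM in WT shoots, against 1120 to 1480 CPM over all roots used. Of 13 photosynthetic genes, the summed level was 18900 to 21200 CPM in 41-OX shoots, 20700 to 26100 CPM in pxy shoots and 22300 to 23500 CPM in WT shoots. In roots these 13 genes summed to 4210 CPM in 41-OX replicate 4 and to 283 to 1000 CPM in the other libraries used.

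CRKs work at the cell surface, where they take part in sensing pathogens and reactive oxygen species outside the cell, and many of their transcripts respond to salicylic acid, microbial molecules and oxidative stress. CRK10 is also known in Arabidopsis from a gain-of-function allele with defective xylem vessels and an activated defence response. CRK13 gives resistance to Pseudomonas bacteria through salicylic acid when overexpressed, CRK5 acts in stress and abscisic acid responses and in leaf senescence, and CRK6 and CRK7 have been linked to protection against extracellular oxidative damage. CRK36 takes part in abscisic acid and osmotic stress signalling, together with the related kinase ARCK1, and in pattern-triggered immunity. WRKY transcription factors, a group that includes regulators of defence, bind W-boxes, whose core is TTGAC.

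CRK5 to CRK13 belong to 1 tandem array on the long arm of chromosome 4. In the TAIR10.1 annotation the array runs from CRK5 to CRK24 over 74.2 kb, chr4:12117491-12191704, and holds 20 CRK loci and 1 other protein-coding locus. It contains 7 of the 9 genes. CRK5 lies at chr4:12117491-12120220 on the minus strand, CRK6 at chr4:12121369-12124564 on the plus strand, CRK7 at chr4:12125664-12128490 on the plus strand and CRK8 at chr4:12129485-12134209 on the plus strand. CRK10 at chr4:12137995-12140930 on the plus strand and CRK11 at chr4:12140899-12143858 on the minus strand run towards each other and overlap by 32 bases. CRK13 lies at chr4:12148673-12151638 on the minus strand. CRK36 at chr4:2231717-2234689 on the minus strand and CRK41 at chr4:418327-421885 on the plus strand stand outside the array on the same chromosome. All 9 are annotated as protein-coding.

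The array's genes resemble each other, which bears on how far their reads can be assigned. Of all windows of 50 bases in the exons, 22% in CRK6, 16.5% in CRK8 and 15.4% in CRK13 occur elsewhere in the genome, against at most 0.987% in CRK36, CRK7, CRK41, CRK10, CRK11 and CRK5. The values of CRK6, CRK8 and CRK13 are uncertain to that extent, since the treatment of reads with several matches is not given in the sources used here. Whether counting used strand is not given either, so reads in the short overlap of CRK10 and CRK11 cannot be told apart.

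The 250 bases before the annotated gene start are printed for 4 genes, the 3 with the lowest fold change in 41-OX against WT shoots among the 6 genes with enough counts for a fit, and CRK13 as an array neighbour without a lower level. They come from the RefSeq TAIR10.1 sequence and read 5′ to 3′ on the strand of the gene, with each W-box core, TTGAC or its reverse complement GTCAA, in capitals. No match overlaps another in these windows. They cover chr4:418077-418326 for CRK41 and chr4:12137745-12137994 for CRK10, both on the plus strand, and chr4:12143859-12144108 for CRK11 and chr4:12151639-12151888 for CRK13, both on the minus strand.
CRK41: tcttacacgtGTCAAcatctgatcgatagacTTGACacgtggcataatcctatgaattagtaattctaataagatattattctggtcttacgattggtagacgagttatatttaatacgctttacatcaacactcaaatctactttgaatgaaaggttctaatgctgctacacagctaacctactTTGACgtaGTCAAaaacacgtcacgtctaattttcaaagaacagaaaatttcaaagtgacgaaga
CRK10: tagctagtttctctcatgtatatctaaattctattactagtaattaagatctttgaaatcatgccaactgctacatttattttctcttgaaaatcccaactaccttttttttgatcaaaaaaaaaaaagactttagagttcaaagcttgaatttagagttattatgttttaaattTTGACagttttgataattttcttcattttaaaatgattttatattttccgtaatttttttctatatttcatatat
CRK11: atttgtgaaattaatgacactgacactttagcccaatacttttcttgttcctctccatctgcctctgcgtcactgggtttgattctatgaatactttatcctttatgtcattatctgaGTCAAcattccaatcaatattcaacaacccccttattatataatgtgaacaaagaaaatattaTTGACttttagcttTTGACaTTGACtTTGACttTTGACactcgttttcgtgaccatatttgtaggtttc
CRK13: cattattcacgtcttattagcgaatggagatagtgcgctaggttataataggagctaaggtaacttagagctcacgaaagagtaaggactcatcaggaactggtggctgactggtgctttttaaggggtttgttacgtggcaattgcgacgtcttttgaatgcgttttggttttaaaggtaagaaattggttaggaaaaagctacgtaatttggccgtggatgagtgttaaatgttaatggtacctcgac

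The windows differ in how many cores they hold. CRK11 held 6, of which 5 began within 69 bases of the gene start, at 69, 55, 49, 43 and 36 bases before it. CRK41 held 4, as a pair at 240 and 219 bases and a pair at 65 and 57 bases before the start. CRK10 held 1 core, 75 bases before the start, and CRK13 held 0. Of the other genes, CRK5 held 3, CRK6 held 2, and CRK7, CRK8 and CRK36 held 1 each. So 8 of the 9 windows (88.9%) had a core, against 32 of the 45 windows of protein-coding family loci (71.1%) and 12329 of the 27443 windows of all protein-coding genes (44.9%). With 2 or more cores, the shares were 4 of 9 (44.4%), 17 of 45 (37.8%) and 14.1% of all genes. CRK13, printed for contrast, is the only window without a core. CRK5, also in the array, had a log2 fold change of -0.17 (SE 0.41) in 41-OX against WT shoots, and CRK36 had 0.44 (SE 0.31). The number of cores was not tested against the fold changes. A match is a string of letters and no measured binding site.

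Only a few of the 9 genes were well expressed. Levels between genes are compared as CPM per kilobase of exon, after TMM scaling of the library totals. In 41-OX shoots CRK11 stood at 10.2 ± 1.19 and CRK10 at 8.73 ± 1.53 CPM per kb, which differed by less than the SD of CRK10 (n = 4). In pxy shoots CRK10 stood at 18.3 ± 1.11 and CRK11 at 13.1 ± 0.705 CPM per kb (SD, n = 4). In WT roots CRK11 led at 15.6 ± 2.23 CPM per kb, ahead of CRK10 at 2.51 ± 0.36 CPM per kb (SD, n = 4), and in WT shoots CRK10 led at 33.3 ± 3.55, ahead of CRK11 at 18.7 ± 0.936 CPM per kb (SD, n = 3). In WT the order of these leading genes thus differed between organs.

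The other 7 genes were far lower in WT shoots. CRK41 stood at 3.24 ± 0.852, CRK13 at 1.46 ± 0.715, CRK36 at 0.78 ± 0.288 and CRK5 at 0.753 ± 0.297 CPM per kb. CRK36 and CRK5 differed by less than the SD of either, and CRK13 differed from CRK36 by less than its own SD. CRK6, CRK8 and CRK7 had 0.189 ± 0.102, 0.136 ± 0.0323 and 0.0194 ± 0.0336 CPM per kb, and CRK6 and CRK8 differed by less than the SD of CRK6.

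**Figure D1:**
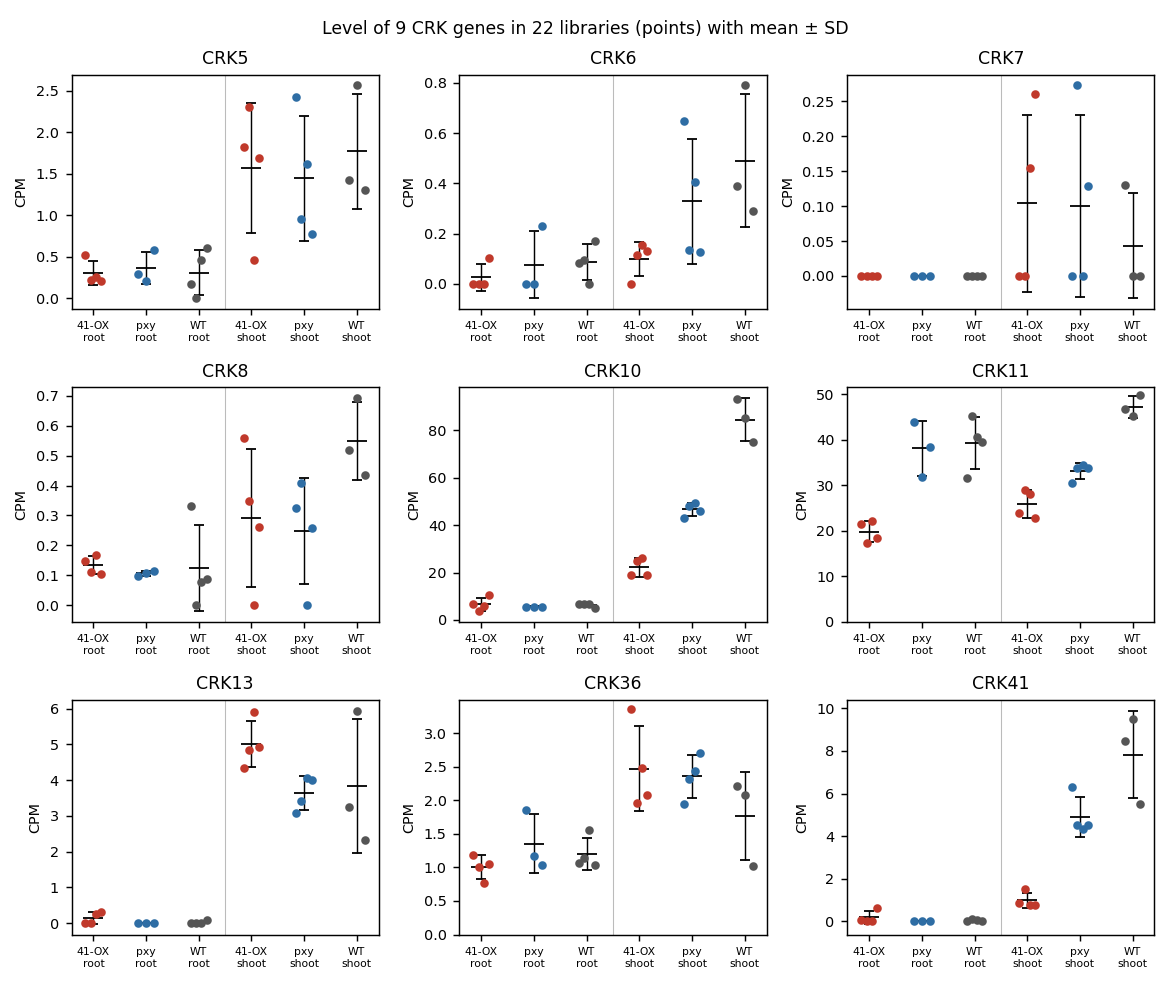
TMM-scaled CPM of each gene (vertical axis, linear, own scale per panel) in the 22 libraries, by genotype and organ; points are libraries, bars mean ± SD. In shoots CRK10 is lowest in 41-OX, higher in pxy and highest in WT, CRK41 is lowest in 41-OX, CRK11 is lower in 41-OX than in WT in both organs, and CRK6, CRK7 and CRK8 stay under 1 CPM in all libraries.

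In 41-OX shoots the level of CRK10, CRK11 and CRK41 was lower than in WT shoots, with no overlap between the groups. Of all 20163 genes fitted, 30.9% changed between these groups (edgeR's quasi-likelihood test, adjusted p under 0.05). How many of all genes lay apart without overlap was not counted, here or in the comparisons below. CRK10 was at 18.9, 24.8, 26.2 and 18.9 CPM in 41-OX shoots, against 93.4, 85.1 and 75.3 CPM in WT shoots. All 4 of the 41-OX libraries lay well under the lowest WT library. The log2 fold change of CRK10 was -1.92 (SE 0.11). CRK41 was at 0.84, 1.5, 0.777 and 0.78 CPM in 41-OX shoots, against 8.45, 9.5 and 5.53 CPM in WT shoots. Its log2 fold change of -2.96 (SE 0.28) was the lowest of the 6 genes fitted, and it rests on 5 to 13 counts per 41-OX library. CRK11 was at 23.8, 28.9, 28.1 and 22.9 CPM in 41-OX shoots, against 46.8, 45.2 and 49.9 CPM in WT shoots, a log2 fold change of -0.86 (SE 0.10). The groups were apart for this gene as well, but by less than for CRK10 and CRK41.

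Of the other 6 genes, CRK6 alone was apart from WT in 41-OX shoots, on 3 counts in all over 4 libraries, against 13 counts over the 3 WT libraries. CRK13 was at 4.34, 4.85, 5.9 and 4.94 CPM in 41-OX shoots, against 3.25, 5.94 and 2.33 CPM in WT shoots, with a log2 fold change of 0.33 (SE 0.25). WT replicate 3 lay above every 41-OX library for CRK13 and the other WT libraries lay under all of them. Without WT shoot replicate 3 the log2 fold change of CRK13 was 0.84 (SE 0.26). CRK36 was at 3.36, 1.96, 2.48 and 2.08 CPM in 41-OX shoots, against 2.21, 2.08 and 1.02 CPM in WT shoots, and CRK5 at 1.82, 2.31, 0.466 and 1.69 CPM, against 1.43, 2.57 and 1.31 CPM. The groups overlapped for both, with log2 fold changes of 0.44 (SE 0.31) for CRK36 and -0.17 (SE 0.41) for CRK5. CRK6, CRK7 and CRK8 did not pass the filter on low counts in any fit. In shoots CRK6 had 0 to 1 counts per library in 41-OX, 1 to 4 in pxy and 2 to 8 in WT. CRK8 had 0 to 4 counts in 41-OX, 0 to 3 in pxy and 3 to 7 in WT, and CRK7 had 0 to 2, 0 to 2 and 0 to 1.

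Marker genes of the other organ also differed in 41-OX shoots. All 10 root markers fitted were higher in 41-OX than in WT shoots (edgeR's quasi-likelihood test, adjusted p under 0.05), with a median log2 fold change of 2.78, and 6 of 13 photosynthetic markers were lower. No root marker was at 0 in any 41-OX shoot library, and at most 1 of 11 was at 0 in a pxy or WT shoot library. Their part in the levels of the CRK genes was not tested. In whole shoots, fewer cells that express a gene and less RNA per cell cannot be told apart.

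In pxy shoots CRK10 and CRK11 stood between their levels in 41-OX and in WT shoots. CRK10 was at 43.1, 48.3, 49.5 and 45.8 CPM in pxy shoots, against 75.3 to 93.4 CPM in WT shoots, with a log2 fold change of -0.85 (SE 0.10). CRK11 was at 30.5, 33.7, 34.5 and 33.7 CPM in pxy shoots, against 45.2 to 49.9 CPM in WT shoots, with a log2 fold change of -0.51 (SE 0.10). For both genes every pxy library lay under every WT library and above every 41-OX library. Of all 20163 genes fitted, 1.70% changed between pxy and WT shoots (edgeR's quasi-likelihood test, adjusted p under 0.05). CRK41 was at 6.32, 4.5, 4.33 and 4.52 CPM in pxy shoots, against 5.53 to 9.5 CPM in WT shoots, so that pxy replicate 1 overlapped the lowest WT library. Its log2 fold change was -0.69 (SE 0.22), and it was -0.88 (SE 0.22) without WT shoot replicate 4. CRK13 was at 3.08 to 4.06 CPM, CRK36 at 1.95 to 2.71 CPM and CRK5 at 0.774 to 2.43 CPM in pxy shoots, and all 3 overlapped their WT values. Their log2 fold changes were -0.12 (SE 0.27), 0.39 (SE 0.31) and -0.38 (SE 0.43). The comparisons of 41-OX with WT and of pxy with WT share the WT libraries, so their values are set side by side and no likeness between them is drawn.

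Set directly against pxy shoots, 41-OX shoots had lower levels of CRK41 (log2 fold change -2.27, SE 0.29), CRK10 (-1.07, SE 0.11) and CRK11 (-0.35, SE 0.09). CRK13 was at 0.45 (SE 0.24), CRK5 at 0.21 (SE 0.41) and CRK36 at 0.05 (SE 0.28) on the same scale. For CRK13, every 41-OX library, from 4.34 CPM up, lay above every pxy library, up to 4.06 CPM. Of all 20163 genes fitted, 29.2% changed between these groups (edgeR's quasi-likelihood test, adjusted p under 0.05).

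The rest of the family, taken by name, is set beside these levels, though it is also what the choice of the 9 genes left. Of the 37 other CRK loci, 25 passed the low-count filter in shoots, and 14 of them (56.0%) changed in 41-OX against WT, where 30.9% of all 20163 genes fitted did. By direction, 9 of the 25 fell and 5 rose, beside 15.8% of all genes lower and 15.1% higher. The median log2 fold change of the 25 was -0.27, against 0.00 for all genes fitted. CRK9 (-1.41, SE 0.22, adjusted p = 3.05e-05), CRK14 (-1.27, SE 0.19, adjusted p = 2.34e-05), CRK39 (-0.98, SE 0.26, adjusted p = 0.00563) and CRK21 (-0.96, SE 0.13, adjusted p = 1.66e-05) fell the most. CRK27 (1.33, SE 0.18, adjusted p = 4.72e-06) and CRK30 (1.13, SE 0.21, adjusted p = 0.000214) rose the most. With the 9 genes added, 17 of 31 family loci were called, 12 lower and 5 higher, and no reading is placed on the 3 of the 6 fitted genes in that count.

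In the array from CRK5 to CRK24, 14 of 20 loci were fitted in shoots, and 6 were called lower and 0 higher in 41-OX, beside 15.8% of all genes lower and 15.1% higher. Of the 26 loci outside it, 17 were fitted, 6 called lower and 5 higher. The lower calls include CRK10 and CRK11 in the array and CRK41 outside it, on which no reading is placed. CRK9, CRK10 and CRK11 stand next to each other in the array, and all 3 had lower levels in 41-OX shoots. CRK10 and CRK11 count as chosen on these shoot values, so no reading is placed on their standing together. CRK12, the next locus, had a log2 fold change of -0.74 (SE 0.40) that did not pass (adjusted p = 0.173), and CRK13 is the one after it. The difference in direction between array and other loci was not tested.

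**Figure D2:**
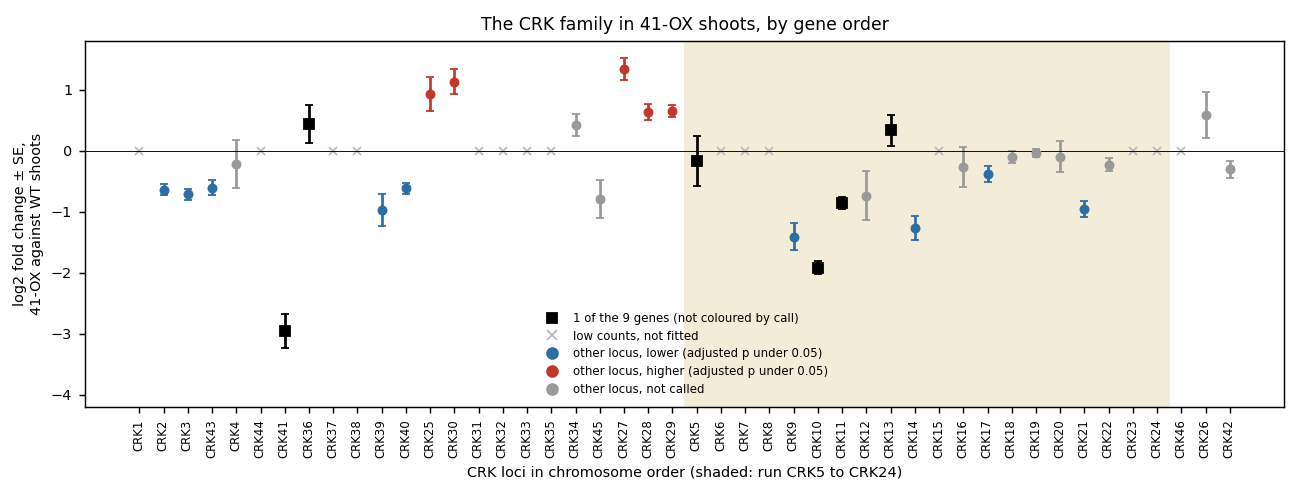
Log2 fold change ± SE in 41-OX against WT shoots (vertical axis) of the CRK loci in chromosome order (horizontal axis, 1 step per locus, not to distance), with the array shaded; squares are the 9 genes, circles the other loci coloured by the edgeR call, crosses loci with too few counts. The called rises among the other loci, CRK25, CRK30, CRK27, CRK28 and CRK29, stand outside the shaded array.

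In pxy against WT shoots, 0 of the 25 other loci passed, while 1.70% of all genes did. At an unadjusted p under 0.05 the number was 7 of 25, and DESeq2 called 0. CRK10 and CRK11 made up the family's count of 2 in that comparison, and no reading is placed on it. The family's count was 5 with no low-count filter and 4 without WT shoot replicate 4, all lower. Beside these, 514 of 27397 and 397 of 20403 genes in all were called. In 41-OX against pxy shoots, 14 of the 25 passed, 9 lower and 5 higher, beside 29.2% of all genes. CRK30 (log2 fold change 1.10, adjusted p = 0.000161) and CRK27 (0.82, adjusted p = 0.000375) rose, and CRK14 (-1.04, adjusted p = 0.000214), CRK39 (-0.74, adjusted p = 0.0302), CRK21 (-0.71, adjusted p = 0.000268) and CRK9 (-0.64, adjusted p = 0.0362) fell.

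In roots CRK11 was the 1 gene of the 3 fitted that changed in 41-OX. CRK11 was at 21.5, 17.2, 22.1 and 18.4 CPM in 41-OX roots, against 31.7, 45.3, 40.7 and 39.6 CPM in WT roots. Every 41-OX root library lay under every WT root library. CRK11 fell by 1.01 on the log2 scale (SE 0.13), with an adjusted p of 0.000392 over 20300 genes, of which 6.56% were called. It fell by 0.97 (SE 0.15, adjusted p = 0.00137) without 41-OX root replicate 4, the library with high photosynthetic markers. None of the 13 photosynthetic markers passed in 41-OX against WT roots in edgeR or DESeq2, 0 had an unadjusted p under 0.05, and their median log2 fold change was 1.41. Adjusted p-values in roots carry the limit that the record does not say which values chose the genes. In pxy roots CRK11 was at 44, 31.8 and 38.5 CPM, within the WT range, with a log2 fold change of -0.03 (SE 0.14, adjusted p = 0.935). Against pxy roots, CRK11 fell by 0.98 on the log2 scale in 41-OX roots (SE 0.14, adjusted p = 0.000713).

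CRK10 was at 6.86, 3.78, 5.75 and 10.4 CPM in 41-OX roots, at 5.66, 5.62 and 5.31 CPM in pxy roots, and at 6.69, 6.92, 6.9 and 5.02 CPM in WT roots. The 41-OX values spread on both sides of the WT values, and the highest is replicate 4, the root library with the highest photosynthetic markers. Its log2 fold change was 0.04 in 41-OX (SE 0.24, adjusted p = 0.953), and -0.23 without that library (SE 0.20, adjusted p = 0.596). In pxy roots it was -0.19 (SE 0.26, adjusted p = 0.788). CRK36 was at 0.762 to 1.19 CPM in 41-OX roots, 1.04 to 1.85 CPM in pxy roots and 1.04 to 1.55 CPM in WT roots, and the groups overlapped. Neither its log2 fold change in 41-OX (-0.29, SE 0.29, adjusted p = 0.655) nor that in pxy (0.19, SE 0.31, adjusted p = 0.824) passed. CRK10, CRK11 and CRK36 were the 3 genes with enough counts for a test in roots.

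The remaining genes were at or near 0 in roots. CRK41 had 7 counts in all over the 4 libraries of 41-OX roots, 6 of them in replicate 4, then 0 in pxy roots and 2 in WT roots. CRK13 had 6 counts over 41-OX roots, 3 each in replicates 3 and 4, then 0 in pxy roots and 1 in WT roots. CRK7 had 0 counts in every root library. CRK5 had 2 to 7 counts per 41-OX root library, 2 to 5 per pxy library and 0 to 7 per WT library, CRK6 had 0 to 2 and CRK8 0 to 4 over all roots. Differences between genotypes were not detectable for these genes at this depth.

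**Figure D3:**
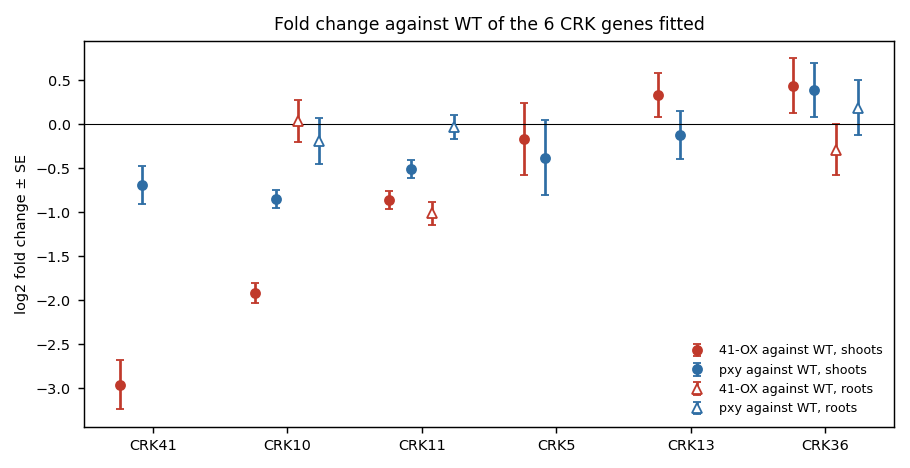
Log2 fold change ± SE (vertical axis) of the 6 genes with enough counts, 41-OX and pxy each against WT; filled circles are shoots, open triangles roots, and roots are shown for the 3 genes fitted there. CRK11 lies near -1 in 41-OX in both organs, while CRK10 lies near -2 in 41-OX shoots and near 0 in 41-OX roots.

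In the family in roots, 13 of the 37 other loci were fitted, and 4 changed in 41-OX against WT (30.8%, beside 6.56% of all genes). CRK29 rose (log2 fold change 0.59, SE 0.10, adjusted p = 0.00186), and CRK43 (-0.53, SE 0.10, adjusted p = 0.00543), CRK2 (-0.42, SE 0.09, adjusted p = 0.011) and CRK3 (-0.35, SE 0.09, adjusted p = 0.0379) fell. DESeq2, with its own filter over the 37 other loci, called 6, with 4 lower and 2 higher. With the left-out libraries put back, the family's count in this comparison, CRK11 included, was 2 in place of 5. Over all genes, 137 of 20161 were called in that setting, in place of 1332 of 20300. In pxy against WT, edgeR called 0 of the 16 family loci fitted, 0 passed at an unadjusted p under 0.05, and DESeq2 called 0, beside 0.0394% of all genes called. In 41-OX against pxy roots, 3 of the 13 passed, beside 9.77% of all genes: CRK29 rose (0.64, SE 0.10, adjusted p = 0.00152), and CRK43 (-0.57, SE 0.11, adjusted p = 0.0049) and CRK27 (-0.35, SE 0.09, adjusted p = 0.0207) fell.

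The 41-OX effect was also compared between the 2 organs. The difference is given as root minus shoot, on the log2 scale, with no p, because the shoot values count as used in choosing the genes. CRK10 was at 1.99 (SE 0.26), and at 1.73 without 41-OX root replicate 4 (SE 0.22). CRK41 was at 4.60 (SE 1.25), but at 2.58 without that library (SE 2.09), since 6 of its 7 counts in 41-OX roots came from there. For CRK11, at -1.01 in roots and -0.86 in shoots in the separate fits, the difference was -0.12 (SE 0.17). CRK13 was at 1.78 (SE 1.17), CRK36 at -0.71 (SE 0.40) and CRK5 at 0.17 (SE 0.85), and leaving out single libraries moved CRK13 between 1.20 and 3.12.

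Between organs of the same genotype, CRK10, CRK13 and CRK41 stood far lower in roots than in shoots, while CRK11 levels in the 2 organs of WT overlapped. CRK10 was at 5.02 to 6.92 CPM in WT roots, against 75.3 to 93.4 CPM in WT shoots, a log2 fold change of -3.73 (SE 0.18, adjusted p = 4.56e-15), where 80.3% of all 21397 genes fitted were called. It was -3.08 in pxy (SE 0.20, adjusted p = 1.43e-12) and -1.74 in 41-OX (SE 0.18, adjusted p = 5.59e-09). The background for these was 79.9% of genes called in pxy and 78.7% in 41-OX. CRK41 had 2 counts over the WT roots against 199 over the WT shoots, and CRK13 had 1 against 101. As CPM without TMM scaling, the WT shoot over root ratio was 151 for CRK41 (95% exact conditional interval 41.2 to 1250) and 153 for CRK13 (26.8 to 6100), and these intervals cover counting error only. In pxy both genes were at 0 in roots, and with a floor of 3 counts over the group CRK41 was at least 36.4-fold lower in roots and CRK13 at least 27.5-fold lower. In 41-OX the shoot over root ratio was 5.39 for CRK41 (2.32 to 14.5) and 31.2 for CRK13 (14 to 86.5). Without 41-OX root replicate 4, which held 6 of the 7 root counts of CRK41, its log2 fold change in 41-OX, root against shoot, was -4.57 (SE 0.76), against -2.55 (SE 0.65) with it.

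CRK11 was at 31.7 to 45.3 CPM in WT roots, against 45.2 to 49.9 CPM in WT shoots, so that the highest root library stood just above the lowest shoot library. The log2 fold change of -0.27 (SE 0.12, adjusted p = 0.0396) did not hold under several other settings, for instance DESeq2 (adjusted p = 0.0536) or without WT root replicate 1 (-0.18, adjusted p = 0.158). Without TMM scaling, on CPM with 0.5 added, the median of all genes, root against shoot, stood at 0.33 in WT on the log2 scale, against -0.01 with it, and the unscaled root over shoot ratio of CRK11 was 1.05. Since the fold change of CRK11 was smaller than this shift of all genes, no direction is given for it between the organs of WT. In pxy CRK11 was at 31.8 to 44 CPM in roots, against 30.5 to 34.5 CPM in shoots, a log2 fold change of 0.20 (SE 0.12, adjusted p = 0.139). In 41-OX it was at 17.2 to 22.1 CPM in roots, against 22.9 to 28.9 CPM in shoots, a log2 fold change of -0.39 (SE 0.12, adjusted p = 0.00492), where the unscaled ratio was 0.901. CRK36 was lower in roots in 41-OX (-1.29, SE 0.28, adjusted p = 0.000177), and at -0.59 in WT (SE 0.30, adjusted p = 0.0726). In pxy CRK36 was at -0.79 (SE 0.29, adjusted p = 0.0179), which did not hold by DESeq2 (adjusted p = 0.0502). Nor did it hold in edgeR without pxy root replicate 3 (adjusted p = 0.0642) or replicate 4 (adjusted p = 0.0784). The unscaled shoot over root ratio of CRK36 in pxy was 1.37 (0.912 to 2.09). CRK5 had 15 counts over WT roots and 46 over WT shoots, a shoot over root ratio of 4.65 (2.55 to 8.96). CRK6 had 4 and 13 counts, a ratio of 4.92 (1.52 to 20.7), and CRK8 had 6 and 14 counts, a ratio of 3.53 (1.28 to 11.2). In 41-OX the ratio was 3.77 (0.303 to 198) for CRK6 and 1.89 (0.6 to 6.44) for CRK8. In pxy it was 3.54 (0.733 to 33.7) for CRK6 and 1.84 (0.419 to 11) for CRK8. The 41-OX and pxy intervals of CRK6 and CRK8 include equal levels, and all these intervals cover counting error only.

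**Figure D4:**
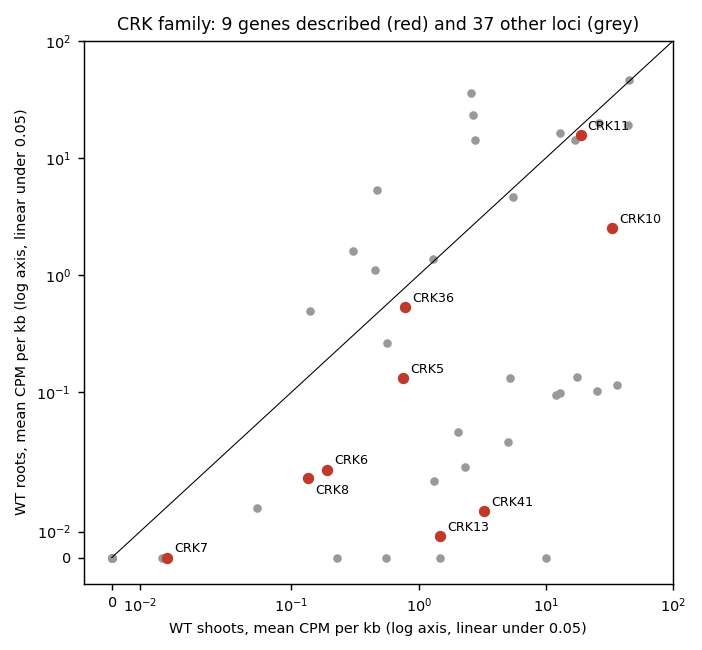
Mean CPM per kb of exon of the 46 CRK loci in WT roots (vertical axis) and WT shoots (horizontal axis), log axes that are linear under 0.05; the line marks equal levels, red points are the 9 genes and grey points the other 37. CRK11 lies close to the line, CRK10, CRK41 and CRK13 far under it, and several grey loci with high shoot levels lie lower in roots than CRK10.

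Low root levels were common in the family: 16 of its 46 loci passed the low-count filter in roots and 31 in shoots. Of all 33602 loci counted, 20300 passed in roots and 20163 in shoots. In WT, 21 of 32 loci fitted over both organs were lower in roots and 7 higher, beside 40.7% of all genes lower and 39.5% higher. Loci that passed the filter through their shoot libraries alone could hardly do otherwise, so the count is a description. Among the other loci with the largest difference in WT, CRK21 had 0.272 ± 0.278 CPM in roots (SD, n = 4) and 86.4 ± 16.4 CPM in shoots (SD, n = 3), and CRK40 had 0.316 ± 0.311 and 78.2 ± 4.27 CPM. CRK18 had 0.296 ± 0.194 CPM in roots and 39.2 ± 5.51 CPM in shoots, and CRK22 had 0.257 ± 0.245 and 33.9 ± 4.85 CPM. CRK42 and CRK39 had 0 counts in WT roots and 28.9 ± 4.9 and 3.65 ± 0.835 CPM in WT shoots.

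The genes around CRKs in immune signalling showed more falls than rises in 41-OX shoots. Of 17 surface immune receptors and their signalling partners, 16 were fitted, 6 fell and 1 rose in 41-OX against WT (43.8%, beside 30.9% of all genes), with a median log2 fold change of -0.09. MPK3, a mitogen-activated protein kinase of the immune cascade, fell (-0.94, SE 0.09, adjusted p = 5.36e-08), as did RBOHD, the oxidase that makes the apoplastic oxidative burst (-0.82, SE 0.16, adjusted p = 0.000595), and SOBIR1, a co-receptor of receptor-like proteins (-0.79, SE 0.14, adjusted p = 0.000396). BIR1, a receptor kinase that restrains cell death, fell as well (-0.60, SE 0.10, adjusted p = 5.63e-05). Of 20 genes of salicylate immunity, 12 were fitted, 8 fell and 1 rose (75.0%), with a median of -0.49. DESeq2, over the whole list, called 8 lower and 3 higher. WRKY70 (-2.21, SE 0.36, adjusted p = 0.000623) and WRKY33 (-1.74, SE 0.09, adjusted p = 5.08e-11), both WRKY factors of defence, and CBP60g, a regulator of salicylate synthesis (-1.90, SE 0.17, adjusted p = 3.46e-08), fell. EDS5, the transporter that exports the salicylate precursor from chloroplasts, rose (0.74, SE 0.21, adjusted p = 0.00985). Root markers moved in the same libraries, as given above.

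Beside 1.70% of all genes called in pxy against WT shoots, 1 of the 16 surface genes fell, MPK3 (-0.36, SE 0.09, adjusted p = 0.0396), and 3 of the 12 salicylate genes: WRKY70 (-1.72, SE 0.34, adjusted p = 0.0306), WRKY33 (-1.20, SE 0.09, adjusted p = 3.93e-08) and CBP60g (-0.90, SE 0.16, adjusted p = 0.00394). None rose in edgeR's test. In 41-OX roots 0 of 17 surface genes passed in edgeR or DESeq2, and 2 had an unadjusted p under 0.05. Of 15 salicylate genes fitted there, 3 rose and 2 fell (33.3%, beside 6.56% of all genes). DESeq2, over the whole list, called 3 higher and 3 lower. FMO1 (1.53, SE 0.27, adjusted p = 0.00352) and ALD1 (1.25, SE 0.27, adjusted p = 0.0125), enzymes of the pipecolate branch of systemic immunity, rose with the WRKY factor gene WRKY54 (0.84, SE 0.20, adjusted p = 0.0239). EDS5 fell (-0.56, SE 0.15, adjusted p = 0.0421), and so did ICS1, the enzyme that starts salicylate synthesis (-0.47, SE 0.11, adjusted p = 0.0169). In pxy roots 0 genes of either list passed in edgeR or DESeq2, and 0 had an unadjusted p under 0.05. These lists were drawn up with results of these data known, and their counts do not stand as independent support for a direction.

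The 9 genes did not vary as 1 group. Over the 22 libraries, with the mean of each group of genotype and organ taken off, log2 CPM of CRK10 and CRK41 had a Pearson r of 0.74, and no other of the 36 pairs was over 0.5. The neighbours CRK10 and CRK11 had an r of 0.24 on the same measure. CRK10 and CRK41 were both highest among 41-OX roots in replicate 4, at 10.4 and 0.628 CPM. That library had high photosynthetic markers, and the r without it was not computed. The libraries share depth and preparation between genes, and most pairs involve genes with a few counts per library. The genes outside the family whose pattern was closest to the mean of the 9 genes, by Pearson r of log2 CPM centred on the organ mean over 22 libraries and 19110 candidate genes, were AT4G11570 (0.882), AT4G18530 (0.871), AT5G66800 (0.871), ETP1 (0.859), ACS6 (0.857) and AT2G38820 (0.856). ACS6 encodes an enzyme of ethylene synthesis and ETP1 an F-box protein of ethylene signalling. Centring on the organ keeps the genotype differences in shoots, which count as used in choosing the 9 genes. The genes named are the highest of 19110, so their r is high by selection and no reading is placed on them.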

How the data were processed

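Deposited raw read counts per locus were used, in 1 column per sample. Per the submitters' processing notes the authors used CASAVA, TopHat2 and HTSeq with the genome build TAIR10; versions, annotation release, strand setting and overlap mode are not given in the sources used here. Whether the deposited counts pool the 2 technical replicates of the design text is not stated. Rows that name no gene did not enter library totals; no-feature reads made up 1.82% to 3.41% and ambiguous ones 1.8% to 2.61%. Replicates differed by more than counting noise, so no library was counted as a duplicate.

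Tests used edgeR 4.0.16 (R 4.3.3), with its filterByExpr filter, TMM scaling and the robust two-sided quasi-likelihood F-test, in 1 fit of 11 shoot libraries, 1 of 11 root libraries and, for organ contrasts, 1 of 22. Calls are at p under 0.05 after Benjamini-Hochberg adjustment across every gene fitted. The procedure was tested on simulated data. Levels are TMM-scaled CPM. Alternatives were DESeq2 1.42.0 and its size factors, no low-count filter, a replicate block, other sets of libraries and leaving out each library.

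Same-numbered libraries did not consistently deviate together (correlations -0.49 to 0.334), so no pairing entered the main tests. The labels do not say whether equal numbers mark a pair. Positions, and the symbols of genes outside the lists, come from RefSeq's TAIR10.1 annotation, which matched all 107 listed loci by locus code. Names of listed genes are those of the lists. The annotation gives some CRK loci another symbol, as EP1 for CRK9, or the locus code alone, as for CRK43. The genes, lists and tests were chosen with earlier results of these data known. Other named genes are up to 6 called family loci per contrast and 4 per immune list by absolute fold change, for organ contrasts in WT, and 6 genes of closest pattern; CRK12 and the loci in the captions were named after their values were seen.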

Additional observations from a re-analysis of the deposited data

Results flagged for a closer look

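Of 34 groups of 4 libraries with a level above 0, 7 held 1 library far from the other 3. Chance flags about 1 in 20 groups of continuous values, but a group with 1 count in 1 library and 0 in the others is always flagged, so the number is not read against that share. For CRK41 these were 41-OX root replicate 4 at 0.628 CPM, 41-OX shoot replicate 2 at 1.5 CPM and pxy shoot replicate 1 at 6.32 CPM, each the highest of its group. The other 4 were CRK5 in 41-OX root replicate 1 (0.522 CPM), CRK6 in 41-OX root replicate 4 (0.105 CPM, 1 count), CRK13 in WT root replicate 4 (0.0865 CPM, 1 count), all high, and CRK10 in WT root replicate 4 (5.02 CPM), which was low. 41-OX root replicate 4 also had the highest photosynthetic markers of the roots used, 4210 CPM, and the part of these in its CRK41 level was not tested.

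The 41-OX effect, root minus shoot on the log2 scale, was at 1.99 (SE 0.26) for CRK10 and 4.60 (SE 1.25) for CRK41 in edgeR's fit of 22 libraries. Both are a description with no test, because the shoot values count as used in choosing the genes. Without 41-OX root replicate 4 CRK41 was at 2.58 (SE 2.09).

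The library labelled pxy root replicate 2, which entered no comparison, held CRK10 at 81.5 CPM without TMM scaling, where the highest WT root library had 7.69 and the pxy shoots had 36.5 to 44.1 CPM. It held CRK41 at 4.51 CPM (highest WT root 0.105) and CRK13 at 3.09 CPM (highest WT root 0.0989), both within the range of pxy shoots, 3.85 to 5.35 and 2.61 to 3.61 CPM. CRK5 at 0.901 CPM, CRK6 at 0.515, CRK8 at 0.386 and CRK36 at 1.8 CPM lay above the highest WT root values of 0.693, 0.198, 0.374 and 1.72 CPM. They rest on 7, 4, 3 and 14 counts, and CRK8 and CRK36 lay only just above. CRK11 at 39.5 CPM lay under the highest WT root (50.3 CPM) and above the pxy shoots (25.8 to 30.7 CPM), and CRK7 had 0 counts.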

How the results depend on the processing

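The family's number of called loci in pxy against WT shoots, 2 in the main test, was 5 with no low-count filter, 1 in the fit of all 22 libraries, and 2 to 4 when single libraries were left out, with 4 without WT shoot replicate 4. All genes called were 343 of 20163 in the main test, 514 of 27397 with no filter and 143 of 21397 in that fit. In 41-OX against WT roots the family's number was 5, 2 with the left-out libraries put back, and 4 to 5 without single libraries. All genes called there were 1332 of 20300, and 137 of 20161 with the left-out libraries. In root against shoot in pxy the family's number was 28, 18 with the left-out libraries and 27 to 30 without single ones. All genes called there were 17086 of 21397, and 14081 of 21245 with the left-out libraries. The other family counts stayed within 1.5 times: leaving out single libraries gave 15 to 18 in 41-OX against WT shoots, 14 to 17 in 41-OX against pxy shoots, 3 to 5 in 41-OX against pxy roots, and 26 to 29 and 28 to 29 for the organs in WT and 41-OX. With the left-out libraries the organ difference of the 41-OX effect, given with no test, was 1.91 (SE 0.95) for CRK10 and 4.62 (SE 2.22) for CRK41, and for CRK41 it was 2.58 (SE 2.09) without 41-OX root replicate 4. Its range over single libraries left out was 1.73 to 2.17 for CRK10 and 2.58 to 5.06 for CRK41. With the left-out libraries CRK10 in pxy roots against pxy shoots was at -0.78 (adjusted p = 0.287). The cause was not tested.

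Without TMM scaling 6 mean levels moved by more than their SD: CRK10 to 75.2 CPM in WT shoots, 41.2 in pxy shoots and 6.14 in pxy roots, CRK11 to 42 in WT shoots and 29.2 in pxy shoots, and CRK8 to 0.118 in pxy roots. The replicate block gave 16 family loci called in 41-OX against WT shoots, 2 in pxy against WT shoots and 4 in 41-OX against WT roots, close to the fit without it. Fold changes near 0 changed sign when single libraries were left out, among them those of CRK5 in 41-OX shoots and CRK13 in pxy shoots. Counts of 0 to 8 per library limit CRK6, CRK7 and CRK8 everywhere and CRK5, CRK13 and CRK41 in roots.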
